A study of Mus musculus with 2 samples.

Results

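The genes described here are 6 miRNA genes known for enrichment in neurons or glia, Mir132, Mir212, Mir128-1, Mir128-2, Mir137 and Mir338, out of 2202 miRNA genes counted in C2C12 cells. They were chosen by name, from the listed symbols matched to the Ensembl identifiers of the count tables, and all 6 were found. C2C12 is a mouse myoblast line from injured thigh muscle of C3H mice, obtained from ATCC. The 2 libraries are biological replicates of a single group. They hold total RNA shorter than 30 nucleotides, and the labels name no treatment, genotype change, time or culture stage. There is no second condition, so levels are described and the replicates are compared with each other. The labels number the replicates as biological but describe no cultures, so the spread between them may be partly technical.

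A miRNA gene is transcribed as a longer RNA from which a hairpin is cut and then trimmed to a mature miRNA of either arm (5p or 3p). The mature miRNA pairs with messenger RNAs mainly through its seed, bases 2 to 8. Mir132 and Mir212 are cut from the same transcript, which is known as a target of the transcription factor CREB and as induced by neuronal activity. miR-128 is among the abundant miRNAs of the brain, miR-137 is known from neuronal development, and miR-338 from the differentiation of oligodendrocytes, the myelin-forming glia.

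The mature sequences are shown because they set which reads can be told apart. They are RefSeq sequences on GRCm38.p6 (the mm10 build), matched by symbol for 6 of 6 genes, and the seed is in capitals.
miR-132-3p: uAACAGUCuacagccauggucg
miR-212-3p: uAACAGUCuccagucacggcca
miR-128-3p: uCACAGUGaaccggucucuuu
miR-128-1-5p: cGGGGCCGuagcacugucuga
miR-128-2-5p: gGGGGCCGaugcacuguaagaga
miR-137-3p: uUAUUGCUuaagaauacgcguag
miR-338-3p: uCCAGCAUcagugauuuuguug
miR-132-3p and miR-212-3p share the seed AACAGUC, which no other mature miRNA in the RefSeq table carries. They are identical over the first 9 bases and at 17 of 22 positions, so a full-length read can be assigned to its own gene. Counted from the 5′ end, with the base of miR-132-3p first, they differ by A10C, C14U, U17C, U20C and G22A. miR-128-3p has the same sequence in both Mir128 hairpins, whereas the 5p arms differ at 5 of 21 positions.

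The hairpins of the CREB-linked locus are shown whole, with both mature arms in capitals, because the counts are per hairpin and pool the arms.
Mir212: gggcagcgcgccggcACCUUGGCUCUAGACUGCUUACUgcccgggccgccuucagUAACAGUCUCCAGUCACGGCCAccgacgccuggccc
Mir132: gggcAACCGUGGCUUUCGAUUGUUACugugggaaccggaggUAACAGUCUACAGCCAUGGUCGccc
Mir212 spans chr11:75173388-75173478 and Mir132 chr11:75173682-75173747 on mm10, both on the plus strand. The hairpins lie 203 bases apart in an intron of the non-coding transcript 1700016P03Rik (chr11:75172560-75177633). Neither hairpin shares a stretch of 20 bases with any other miRNA gene of the table.

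The other members are spread over the genome. Mir128-1 (chr1:128202361-128202430, plus strand) lies in an intron of R3hdm1, and Mir128-2 (chr9:112118636-112118711, minus strand) in an intron of Arpp21. Both hosts are protein-coding genes, and the Mir128 hairpins share a stretch of 23 bases that covers the 3p arm. Mir137 (chr3:118433857-118433929, plus strand) overlaps an exon of the non-coding transcript Gm26871. Mir338 (chr11:120014765-120014862, minus strand) lies in an intron of the protein-coding gene Aatk, and the hairpin of Mir3065 overlaps it on the other strand.

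Same-strand reads on miRNA genes numbered 27661907 in replicate 1 and 15025315 in replicate 2, and levels are counts per 1000000 of these reads (CPM). Mir21a took 23.1% of them in replicate 1 and 53.5% in replicate 2, which lowers the CPM of other genes in replicate 2. The muscle-specific gene Mir206 had 2559 and 1028 CPM, and Mir133b, its neighbour in the genome, 88.0 and 20.4 CPM. Of the 9 muscle genes listed, 2 were detected in both libraries, and Mir1a-1, Mir133a-1, Mir133a-2 and Mir208a had 0 reads. The Mir1a and Mir133a hairpins share 20 bases or more with copies, so their counts set no limit. Mir133b shares 21 bases with Mir133a-2, so its level may be understated by an amount that was not tested. A gene is called detected where neither library falls below 1 CPM, which 14.5% of all 2202 genes reached and 26.6% of the 1174 genes with a symbol starting with Mir.

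The CREB-linked pair was well expressed in these myoblasts, and the counts placed on the other members were low or near 0. Mir132 had 14484 reads in replicate 1 and 4758 in replicate 2, or 524 and 317 CPM (420 ± 146, SD, n = 2). Mir212 had 3715 and 889 reads, or 134 and 59.2 CPM (96.7 ± 53.1, SD, n = 2). The lower Mir132 library still lay above the higher Mir212 library, so the levels of this pair did not overlap. By mean CPM, Mir132 ranked 89 and Mir212 139 among the 2202 genes, and the rank of Mir132 was 89 in replicate 1 and 90 in replicate 2.

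Mir128-1 had 589 and 214 reads, or 21.3 and 14.2 CPM (17.8 ± 4.99, SD, n = 2), and ranked 189. Its copy Mir128-2 had 34 and 8 reads, or 1.23 and 0.532 CPM (0.881 ± 0.493, SD, n = 2), and reached the detection limit in replicate 1 alone. With Mir21a left out of the denominator its mean was 1.37 CPM and it passed the limit in both libraries, which raised the members detected from 3 to 4. The share of all genes detected with that denominator was not computed. The exact (Clopper-Pearson) 95% interval of Mir128-2 in replicate 2 ran from 0.230 to 1.05 CPM, so that count does not place the gene above or below the limit. Because miR-128-3p is the same at both places, a read of this arm fits both genes. Reads that mapped to several places stand in a separate row of the tables, and how many of them are miR-128-3p was not tested. The counts of the Mir128 genes therefore set no upper limit on miR-128.

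Mir137 had 10 and 8 reads, or 0.362 and 0.532 CPM (0.447 ± 0.121, SD, n = 2). Neither mature arm of Mir137 occurs in another hairpin of the table, so its low count does not rest on a copy within that table. Its 95% intervals, 0.173 to 0.665 CPM in replicate 1 and 0.230 to 1.05 CPM in replicate 2, overlapped each other. The neighbouring miRNA gene Gm24155, 791 bases downstream, had 0 reads in both libraries.

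Mir338 had 2 and 5 reads, or 0.0723 and 0.333 CPM (0.203 ± 0.184, SD, n = 2), which in replicate 1 lies below the 3 counts (0.108 CPM) that a count of 0 allows. Mir3065, which overlaps Mir338 on the other strand, had 0 reads on its own strand. The reads opposite to Mir3065 numbered 2 and 5, the same counts as on Mir338. Counted without strand, both genes had 0 reads, since a read in the overlap then fits both.

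**Figure D1:**
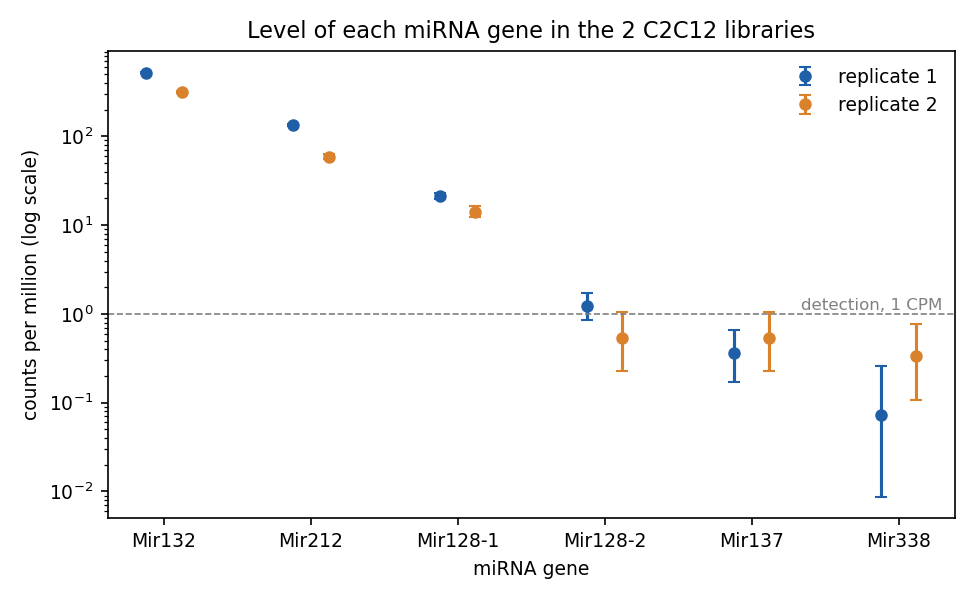
Level of each gene in CPM (log axis) in replicate 1 (blue) and replicate 2 (orange), with exact 95% intervals that cover counting error only; the dashed line is the detection limit of 1 CPM. Mir132, Mir212 and Mir128-1 lie above the line in both libraries, and Mir137 and Mir338 below it in both.

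The order of the levels by mean CPM was Mir132, Mir212, Mir128-1, Mir128-2, Mir137 and Mir338. The first 3 of these, and Mir128-1 and Mir128-2, did not overlap across the libraries. Mir128-2 and Mir137 overlapped, with 8 reads each in replicate 2. The places of Mir128-1 and Mir128-2 hold for reads placed on a single gene, since reads of miR-128-3p fit both. For Mir137 and Mir338 the 95% intervals overlapped within each library, so their order is not resolved at this depth. A read of this kind covers a whole mature miRNA, so counts were not divided by length. Divided by hairpin length and scaled to the median hairpin, the mean levels were 567 CPM for Mir132, 94.6 for Mir212, 22.6 for Mir128-1, 1.03 for Mir128-2, 0.545 for Mir137 and 0.184 for Mir338, in the same order.

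The contrast between the CREB-linked locus and the rest was large in each library. Mir132 and Mir212 summed to 658 CPM in replicate 1 and 376 CPM in replicate 2 (517 ± 199, SD, n = 2), and the other 4 members to 23.0 and 15.6 CPM (19.3 ± 5.17, SD, n = 2). The ratio of these sums was 28.7 in replicate 1 and 24.0 in replicate 2 (26.3 ± 3.27, SD, n = 2). The pair held 96.6% of the reads of all 6 genes in replicate 1 (exact 95% interval 96.4 to 96.9) and 96.0% in replicate 2 (95.5 to 96.5). Reads of miR-128-3p that fit both Mir128 genes would enter the smaller sum if they could be placed, so the ratio may be overstated by an amount that was not tested. Genes of 1 library are not replicates, so the contrast carries no test. In RNA from a bulk culture, fewer cells expressing a gene and less RNA per cell cannot be told apart.

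**Figure D2:**
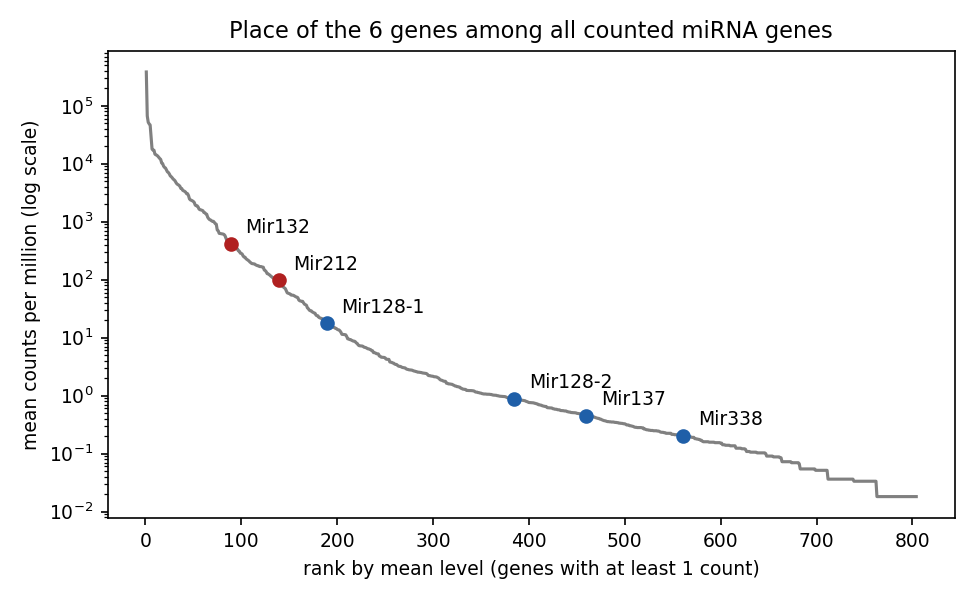
Mean CPM (log axis) of the 804 genes with at least 1 count in either library, ordered from highest to lowest (grey line), with Mir132 and Mir212 in red and the other members in blue. Mir132 and Mir212 sit at ranks 89 and 139, and Mir137 and Mir338 at ranks 460 and 561.

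Within the locus the reads lay mostly on Mir132, although the hairpins come from the same transcript. Mir132 took 79.6% of the reads of the pair in replicate 1 (exact 95% interval 79.0 to 80.2) and 84.3% in replicate 2 (83.3 to 85.2), a mean of 81.9% ± 3.30 (SD, n = 2). This is a ratio of 3.90 reads of Mir132 per read of Mir212 in replicate 1 and 5.35 in replicate 2. Per hairpin base the ratios were 5.38 and 7.38. The share does not depend on how the libraries are scaled, and the intervals of the libraries did not overlap, so the split differed between them by more than counting error. Among the Mir128 genes, Mir128-1 took 94.5% (92.5 to 96.2) and 96.4% (93.0 to 98.4) of the reads placed on either gene, and here the intervals overlapped.

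Genes next to the pair in abundance give a scale for these levels. By mean CPM over the libraries, Mir186 stood next above Mir132 with 498 and 376 CPM, and Mir5099 next below it with 578 and 237 CPM. In replicate 1 this order was reversed, with Mir132 above Mir186 and below Mir5099. By mean CPM, Mir212 stood between Mirlet7c-2, a let-7 gene, with 107 and 94.5 CPM, and Mir3102 with 111 and 79.7 CPM. It lay above both of these in replicate 1 and below both in replicate 2, so the neighbours give a scale and not an order. Stretches shared with other hairpins were not examined for these neighbours, so their counts may leave out reads that fit several places. The muscle-specific Mir206 was 4.89 times as high as Mir132 in replicate 1 and 3.25 times in replicate 2. With 2 libraries of 1 group, no likeness of expression pattern across samples can be measured.

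The replicates were compared for all genes to see how far the members differed between libraries. After trimmed-mean (TMM) scaling, a two-sided exact binomial test on the counts of each gene, adjusted by Benjamini-Hochberg across 556 genes, called 41.5% of them. It called 24.6% higher and 16.9% lower in replicate 2. This test compares the libraries against counting error, not conditions, and genes with many reads pass it at small differences. Of the 5 members with at least 10 reads, 3 were called.

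Mir132 was higher in replicate 2 by a log2 ratio of 0.17 (counting SE 0.024, adjusted p = 6.98e-12, exact binomial test), or 1.13-fold. Mir212 was lower there by a log2 ratio of -0.28 (counting SE 0.054, adjusted p = 2.85e-07, exact binomial test), or 1.22-fold higher in replicate 1. The pair was thus called in opposite directions. With DESeq2 size factors taken over all genes, a setting chosen after seeing the data, Mir132 was at 0.04 and no longer called (adjusted p = 0.168, exact binomial test). By library totals in place of TMM both were lower in replicate 2, with log2 ratios of -0.73 for Mir132 and -1.18 for Mir212, and the gap of 0.46 between them stayed, since a scaling moves all genes alike. Mir128-1 was higher in replicate 2 by 0.32 (counting SE 0.12, adjusted p = 0.0182, exact binomial test) after TMM and lower by library totals, at -0.58. With DESeq2 size factors its log2 ratio was 0.26 and the call was lost (adjusted p = 0.0688, exact binomial test).

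Mir128-2 at -0.24 (counting SE 0.55, adjusted p = 0.889, exact binomial test) and Mir137 at 1.47 (counting SE 0.67, adjusted p = 0.0937, exact binomial test) did not pass. Mir338, with 7 reads in all, was not tested. The sizes of the called differences were ordinary for these libraries. Over the 210 genes whose mean reached 10 CPM, the median absolute log2 ratio was 0.33, and 148 of them differed by more than Mir132, 116 by more than Mir212 and 109 by more than Mir128-1.

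**Figure D3:**
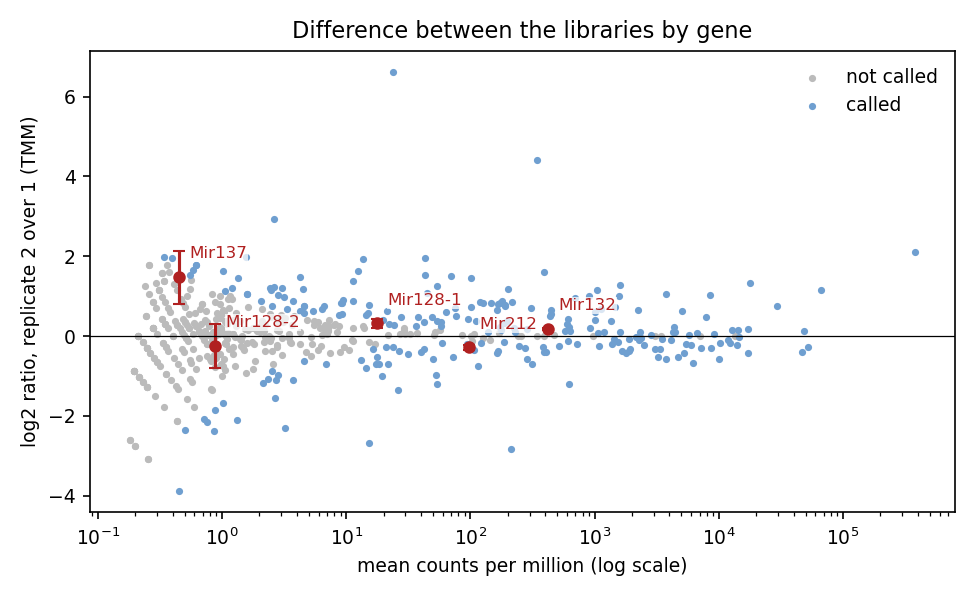
Log2 ratio of replicate 2 over replicate 1 after TMM scaling against mean CPM (log axis) for the 556 tested genes, with genes called by the exact binomial test in light blue, others in grey, and the 5 tested members in red with their counting SE. Mir132, at 0.17, and Mir212, at -0.28, lie on either side of 0 and close to it beside the spread of the other genes.

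By reads placed on each gene, a list of 24 other genes known from neurons or glia was lower than the CREB-linked pair. Neural genes outside this list were not compared, so the place of the pair holds for the list alone. All 24 listed genes lay below both Mir132 and Mir212 in each library. Of the 24, 14 share 20 bases or more with another hairpin, whereas Mir132 and Mir212 do not. The levels of these 14 genes, and the sum of the list, may therefore be understated by an amount that was not tested. Of the 24 genes, 11 (45.8%) were detected in both libraries, beside 26.6% of genes with a symbol starting with Mir and 14.5% of all 2202 genes. Among lists for other cell types, 57.1% of 7 epithelial, 25% of 4 blood and 22.2% of 9 muscle genes were detected. The only endothelial gene listed was detected too. The lists were chosen with earlier results of these data known, so these shares carry no test. The median of mean CPM over the 24 genes was 0.638, against 0.124 over all genes with a symbol starting with Mir. Their sum was 313 CPM in replicate 1 and 159 in replicate 2, less than Mir132 alone in each library. The highest was Mir330 with 69.4 and 47.2 CPM (58.3 ± 15.7, SD, n = 2), and Mir132 was 7.55 and 6.71 times as high. Mir153, known from neurons, had 83.3 and 22.8 CPM, Mir598 had 38.4 and 21.2 CPM and Mir326 had 36.5 and 21.7 CPM. Mir128-1 lay below all of these in each library by reads placed on a single gene. It shares 20 bases or more with Mir128-2, whereas Mir330, Mir153, Mir598 and Mir326 share no such stretch with another hairpin. The level of Mir128-1 may therefore be understated beside them by an amount that was not tested, so this order holds for placed reads alone.

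The neuronal genes best known for their abundance in the brain were at or near 0, with a limit set by their copies. Mir9-1, Mir9-2, Mir124a-1, Mir124a-2 and Mir124a-3 had 0 reads in both libraries and Mir9-3 had 2 and 0 reads. All 6 have 20 bases or more in common with another hairpin, as do 14 of the 24 listed genes, so these counts set no limit on miR-9 or miR-124. Among the 10 listed genes without such a stretch, 6 were detected, and Mir346 and Mir488 had 0 reads, which allows up to 0.108 CPM in replicate 1 and 0.200 CPM in replicate 2. Mir219a-1, known from oligodendrocytes as is Mir338, had 722 and 130 reads, or 26.1 and 8.65 CPM, while its copy Mir219a-2 had 1 read in each. These hairpins share a stretch of 22 bases, and a read of that stretch fits both. The counts therefore set no upper limit on miR-219a, and which arm they come from was not tested. Of the 13 listed genes tested between the replicates, 4 were called higher and 4 lower in replicate 2, beside 24.6% called higher and 16.9% lower over all 556 genes. Their median log2 ratio was 0.14, against 0.09 over all 556 genes.

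**Figure D4:**
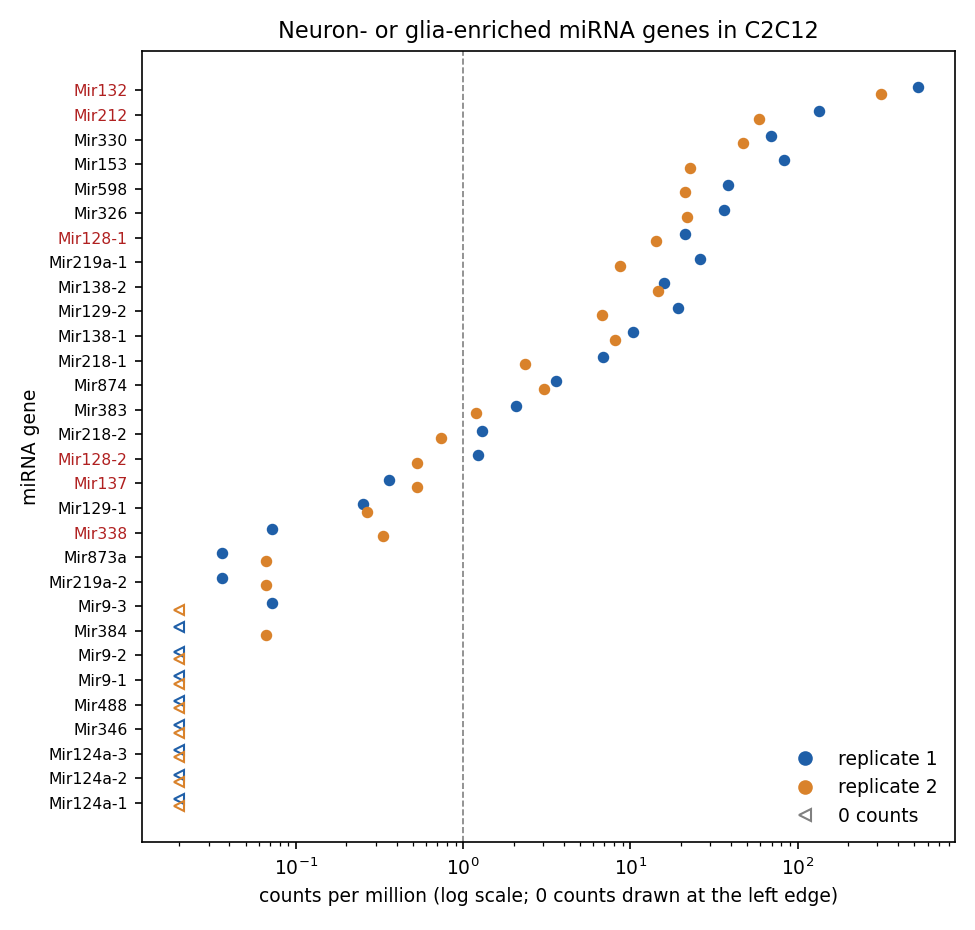
CPM (log axis) of the 6 members (red names) and the 24 other neuron- or glia-enriched genes in replicate 1 (blue) and replicate 2 (orange), ordered by mean level; open triangles at the left edge are counts of 0 and the dashed line is 1 CPM. By reads placed on each gene, Mir132 has the highest level of the 30 genes in each library, and 7 of the 24 other genes have 0 counts in both.

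Markers of other cell types were measured beside the members, and their part in the levels above was not tested. The 4 blood genes summed to 216 and 124 CPM, nearly all of it Mir142 with 215 and 122 CPM, and 1 of 4 was detected. The endothelial Mir126a had 213 and 134 CPM. The 7 epithelial genes summed to 24.3 and 19.0 CPM, with 4 of 7 detected and Mir205 highest at 9.25 and 8.79 CPM. Mir132 was above each of these sums in both libraries. Mir212, with 134 and 59.2 CPM, lay below Mir142 and Mir126a in both libraries and above the epithelial sum.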

How the data were processed

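Small RNA of 2 C2C12 replicates was sequenced. The labels point to an adapter-trimming protocol, and per the deposited readme files the reads were quantified on mm10 with GENCODE M21. Which aligner and counter made the tables is not given in the sources used here. Deposited values are whole-number read counts per miRNA gene, on either strand, on the gene's strand and on the opposite strand. The gene-strand column was used. Rows that name no gene (49.7% and 38.8% of reads) stayed out of totals.

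All 2202 identifiers matched GENCODE M21. Levels are CPM of gene-strand counts. TMM factors came from edgeR 4.0.16 (R 4.3.3) over genes with at least 10 counts. With 1 library against 1 no quasi-likelihood test could be fitted, so an exact binomial test (scipy 1.17.1) was used, with Benjamini-Hochberg adjusted values called below 0.05. A prior count of 0.5 entered the log2 ratios. Size factors from DESeq2 1.42.0, library totals, other filters and other denominators were the alternatives. Amplified reads are not independent molecules, so intervals and floors hold counting error alone. Members and lists were chosen with earlier results of these data known. Named genes are the members, the genes next above and below Mir132 and Mir212, the gene opposite Mir338, the 4 highest listed neural genes, and Mir206, Mir133b and Mir21a. Marker lists are given by counts, highest member and members at 0. Mir219a-1, Mir219a-2, Mir9-3 and Gm24155 were named after their values were seen.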

Additional observations from a re-analysis of the deposited data

Results flagged for a closer look

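Reads outside the gene-strand counts lay above the 3 counts that a count of 0 allows for some listed neural genes, with no control library to set them against. On the strand opposite to Mir219a-1 there were 40 reads in replicate 1 and 10 in replicate 2. Mir219c, which overlaps it on that strand, had the same counts on its own strand. Opposite to Mir219a-2 there were 13 reads in replicate 1, the count of Mir219b there. Opposite to Mir124a-3 there were 7 reads in replicate 1. None of the 6 members had a read on its opposite strand. Reads that mapped to several places numbered 18382947 in replicate 1 and 5599235 in replicate 2. They bear on both Mir128 genes through the shared miR-128-3p, and their origin was not tested.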

How the results depend on the processing

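Without Mir21a in the denominator, Mir132 stood at 681 CPM, Mir212 at 151, Mir128-1 at 29.2, Mir128-2 at 1.37, Mir137 at 0.808 and Mir338 at 0.405 CPM, and 4 of the 6 members were detected in place of 3. Divided by hairpin length, Mir132 stood at 567 CPM. By library totals in place of TMM scaling, 26 genes were called higher and 304 lower in replicate 2, and the log2 ratios of Mir132 (-0.73) and Mir128-1 (-0.58) were reversed. At a limit of 10 CPM, 5 of the 24 neural genes were detected. The share of all genes detected was not computed at this limit or without Mir21a, so these detection counts have no background beside them. Leaving out a replicate gave 317 to 524 CPM for Mir132, 59.2 to 134 CPM for Mir212, 79.6% to 84.3% for the share of Mir132 in its pair, and 24.0 to 28.7 for the ratio of sums. An alternative chosen after seeing the data, DESeq2 size factors over all genes, left Mir132 at 0.04 (adjusted p = 0.168, exact binomial test), not called, and Mir128-1 at 0.19, not called. Mir212 was called lower in replicate 2 under each scaling and filter run. Counted on either strand, Mir338 had 0 reads. Replicate comparisons could not be made with a replicate left out. No paired analysis was possible because there is a single group.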
